A study of Homo sapiens with 12 samples.

Results

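The genes described here are 10 members of the Notch pathway: the receptors NOTCH1, NOTCH2 and NOTCH3, the ligands JAG1, JAG2, DLL1 and DLL3, and the target genes HES1, HEY1 and HEYL. They were chosen by name and matched to the gene names in the deposited tables, where all 10 were found among 58174 genes. RNA was sequenced after depletion of XRN2, a nuclear exoribonuclease that helps RNA polymerase II to terminate, in established cell lines of human glioblastoma named LN229 and U251. Each of the 6 groups holds 2 of the 12 libraries. In each line, cells were reverse transfected with siRNA against XRN2 (siXRN2), with a control siRNA (siNT), or with no siRNA (mock), and RNA was taken 72 hours later. LN229 cells were grown in DMEM and U251 cells in EMEM with a larger share of serum, so the line and its medium cannot be told apart. The labels do not say whether replicates were separate cultures, so a p-value here reflects the spread among these libraries alone, and that spread may be technical.

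Notch receptors are single-pass membrane proteins that are activated when a ligand of the Jagged or Delta-like family on a neighbouring cell pulls on them. An ADAM protease and then the gamma-secretase complex cut the receptor, and the released intracellular domain binds the DNA-binding protein RBPJ and a Mastermind coactivator. The HES and HEY genes, which encode repressors of the basic helix-loop-helix class, are the best known targets. DLL3 differs from the other ligands in that it is known mainly to inhibit Notch in the cell that makes it. In the nervous system the pathway is known for holding neural stem cells back from neuronal differentiation, and its genes are often active in glioblastoma.

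RBPJ is known to bind a short word in the promoters of its targets, and the stretches that hold it are shown because they mark which members carry the classical feature of a Notch target. Promoters from 250 bases before to 50 bases after the gene start were taken from RefSeq (GRCh38.p14), which matched 7 of the 10 members: NOTCH1, NOTCH2, NOTCH3, JAG1, JAG2, HES1 and HEYL. The word GTGGGAA was searched on both strands together with its looser form GTGNGAA, which contains it. GTGGGAA stood in 6.248% of 35116 promoters and GTGNGAA in 13.774%. Of the 7 members, HES1 and HEYL held GTGGGAA. The HES1 stretch lies at chr3:194136063-194136092 on the plus strand, 85 to 56 bases before the start, and holds 2 words, the second on the opposite strand. The HEYL stretch lies at chr1:39639804-39639833 on the minus strand, 190 to 161 bases before the RefSeq start. In the deposited tables HEYL starts at 39639945 on that strand, so there the stretch lies inside the gene. Capitals mark the words.
HES1: GTGGGAAagaaagtttgggaagtTTCACAC
HEYL: ccgcctagggccTTCCCACggctcggcggc
A match describes these letters and is not a measured binding site.

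Exon reads numbered 4846768 to 7469052 per library. Expression is given as CPM, exon reads relative to a library size corrected by TMM (edgeR's trimmed mean method), and where a gene has 0 reads the limit that this allows, 3 reads, comes to 0.380 to 0.604 CPM and covers counting error only. Of the glial and neural stem markers checked against the labels, 9 of 10 had at least 3 reads in both libraries of every LN229 group and 8 of 10 in U251. PROM1 had no read in LN229 and at most 0.337 CPM in U251. The other markers went both ways between the lines. GFAP, the astrocyte filament protein, had 1.41 to 4.31 CPM in the LN229 control libraries against 2348 to 6421 CPM in those of U251. S100B had 294 to 568 CPM in the LN229 controls against 14.8 to 22.0 CPM in the U251 controls, and OLIG2 had 6.73 to 9.67 CPM against at most 0.161 CPM. Control levels of VIM, SOX2, CD44 and EGFR were higher in U251, and those of NES and FABP7 in LN229. XRN2 was at 33.5 and 25.5 CPM in LN229 siXRN2 libraries, against 201 and 242 CPM with siNT and 229 and 235 CPM in mock. In U251 it was at 31.0 and 26.1 CPM with siXRN2, against 144 and 134 CPM with siNT and 138 and 143 CPM in mock. XRN2 fell by 2.90 in log2 units against siNT in LN229 (adjusted p = 3.75e-06, SE 0.17) and by 2.28 in U251 (adjusted p = 6.50e-05, SE 0.17) by edgeR's quasi-likelihood test, so the targeted gene follows the labels in all 12 libraries.

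A pair of control libraries stood apart from their replicates. In LN229 siNT replicate 1, introns took 5.58% of gene reads, against 7.60% to 9.55% in the other libraries, and long genes had fewer reads than in replicate 2. The Spearman correlation across 14232 genes between exon length and the log2 difference of replicate 1 minus replicate 2 was -0.49 there, and -0.03 to 0.10 in the other 5 pairs. In U251 mock replicate 2 the stress genes DDIT3 and HSPA5 had 403 and 19500 CPM, against 13.2 to 18.4 CPM and 1472 to 1635 CPM in the other 5 U251 libraries. Fold changes on exon reads of the Notch genes that rest on these libraries are given with and without them. Intron tests and mean levels per length include them.

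**Figure D1:**
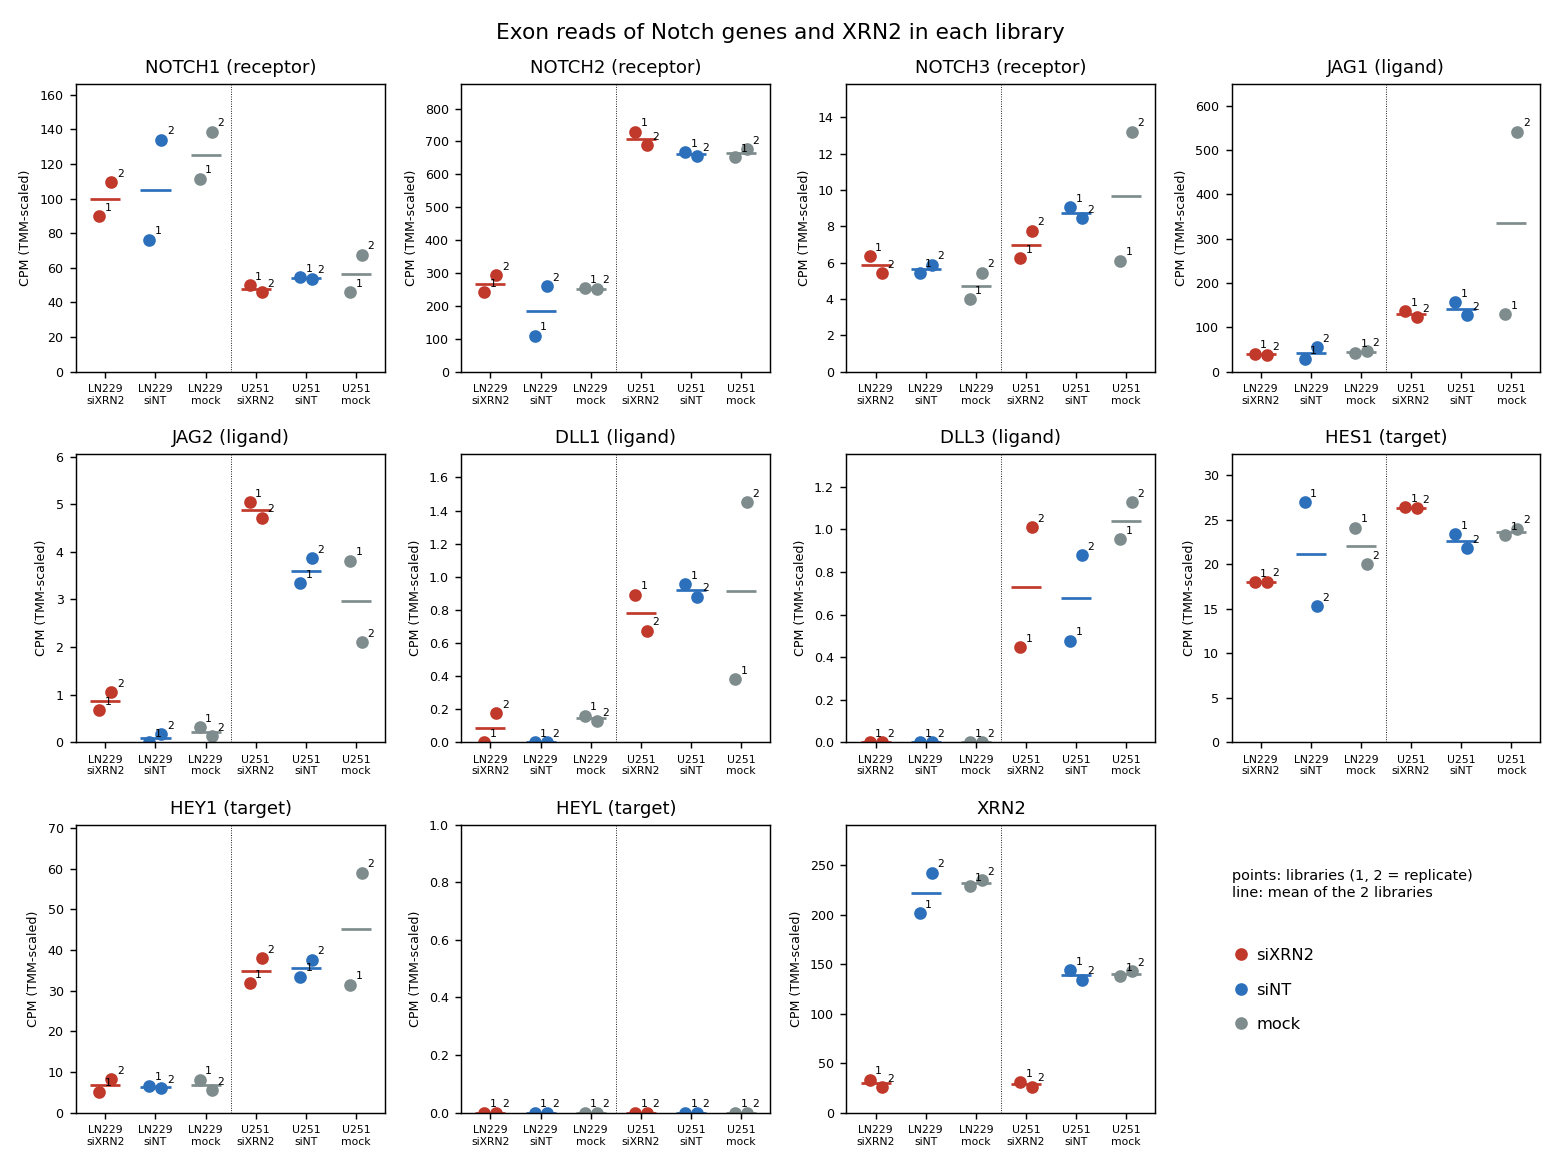
Exon reads of the 10 Notch genes and XRN2 in each library, in TMM-scaled CPM on a linear axis from 0, with siXRN2, siNT and mock from left to right and LN229 left of U251. Points are libraries with their replicate number and the line is the mean of 2. Line differences are wide for NOTCH2, JAG1, JAG2 and HEY1, while NOTCH2 in LN229 siNT replicate 1 (109 CPM) and JAG1 in U251 mock replicate 2 (541 CPM) lie far from their partners.

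Among control cells, the lines had different sets of Notch transcripts. NOTCH1 was higher in LN229, and NOTCH2, NOTCH3, JAG1, JAG2 and HEY1 were higher in U251. The comparison set the mean of the siNT and mock groups of LN229 against that of U251. Of the 10 members, 7 passed the filter on low counts (NOTCH1, NOTCH2, NOTCH3, JAG1, JAG2, HES1, HEY1), JAG2 through its U251 reads alone, and 6 of these were called at an adjusted p under 0.05, 1 higher and 5 lower in LN229. Over all 14232 genes tested 67.0% were called, 34.9% higher and 32.1% lower, so a call between these lines is common. In whole-culture RNA, fewer cells expressing a gene and less RNA of it per cell cannot be told apart. Here and below, whether libraries overlapped is a description, and the share of all genes separated in the same way was not counted.

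Of the receptors, NOTCH1 (chr9:136494444-136545862, minus strand, GRCh38) encodes the receptor best studied as a regulator of stem cells and as an oncogene in T cell leukaemia. It had 76.3 and 134 CPM with siNT and 112 and 139 CPM in mock in LN229, against 54.7 and 53.8 CPM with siNT and 45.8 and 67.6 CPM in mock in U251. Every LN229 control library lay above every U251 one. The log2 fold change was 1.05 (SE 0.17, 95% interval 0.67 to 1.43, adjusted p = 0.000144, edgeR quasi-likelihood test), a 2.07-fold higher level in LN229.

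NOTCH2 (chr1:119911553-120069626, minus strand) encodes a receptor also expressed in many glial cells. It had 109 and 259 CPM with siNT and 253 and 252 CPM in mock in LN229, against 667 and 656 CPM with siNT and 651 and 677 CPM in mock in U251. The groups did not overlap, and the U251 libraries lay within a narrow band while LN229 siNT replicate 1 lay far below its partners. The log2 fold change was -1.62 (SE 0.20, 95% interval -2.05 to -1.18, adjusted p = 1.44e-05), which is 3.07-fold lower in LN229, and -1.40 was the smallest change with any library left out.

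NOTCH2 has partial copies in the genome, the NOTCH2NL genes. Of the 11340 words of 50 bases in its longest transcript (GENCODE 29), 457, or 4.03%, also occur in transcripts of NOTCH2NLA or NOTCH2P1. Of all exon reads given to NOTCH2, 99.4% were unique, against 3.33% of those given to NOTCH2NL, so the level of NOTCH2NL is uncertain and that of NOTCH2 rests almost wholly on unique reads.

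NOTCH3 (chr19:15159038-15200981, minus strand) encodes a receptor known above all from pericytes and vascular smooth muscle. It had 5.44 and 5.89 CPM with siNT and 3.99 and 5.45 CPM in mock in LN229, against 9.06 and 8.44 CPM with siNT and 6.11 and 13.2 CPM in mock in U251. The log2 fold change was -0.83 (SE 0.24, adjusted p = 0.00712 by edgeR's quasi-likelihood test), 1.78-fold lower in LN229. This call rests on U251 mock replicate 2, the library with high stress genes: without it the value was -0.49 (adjusted p = 0.0529), and with the siNT libraries as the only controls -0.63 (adjusted p = 0.134).

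Of the ligands, JAG1 (chr20:10637684-10674107, minus strand), the Jagged ligand with the highest level in both lines, had 28.6 and 55.7 CPM with siNT and 42.7 and 46.2 CPM in mock in LN229. In U251 it had 157 and 128 CPM with siNT and 129 and 541 CPM in mock. No LN229 library reached the lowest U251 library. The log2 fold change was -2.33 (SE 0.42, 95% interval -3.30 to -1.36, adjusted p = 0.00123, edgeR quasi-likelihood test), 5.03-fold lower in LN229. Without U251 mock replicate 2 it was -1.64, still called.

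JAG2 (chr14:105140981-105168824, minus strand), the second Jagged ligand, was close to the detection limit in LN229. It had 0 and 0.168 CPM with siNT and 0.320 and 0.127 CPM in mock there, which is 4 reads in 4 libraries, against 3.34 and 3.87 CPM with siNT and 3.82 and 2.10 CPM in mock in U251, or 76 reads. JAG2 entered the test only through U251, where it is high, so its call there (adjusted p = 4.94e-06, edgeR quasi-likelihood test) is given as a description and supports nothing. By reads per effective library size it was 20.3 times as high in U251 as in LN229 (95% exact counting interval 7.63 to 76.6).

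DLL1, a Delta-like ligand that activates Notch on neighbouring cells, and DLL3 did not pass the filter on low counts. DLL1 had 2 reads over the 4 LN229 control libraries and 22 over the 4 U251 ones, and it was 11.8 times as high in U251 as in LN229 (95% exact counting interval 2.89 to 103). DLL3 had 0 reads in all 6 LN229 libraries, while the 4 U251 control libraries held 20 reads. Against the 3 reads that a count of 0 allows over the group, DLL3 was at least 7.14-fold higher in U251 controls than in LN229 controls. These intervals cover counting error only and no test was made of either gene with the filter in place.

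Of the target genes, HEY1, a HES-related repressor known as a direct Notch target, had 6.65 and 6.05 CPM with siNT and 8.15 and 5.58 CPM in mock in LN229, against 33.4 and 37.6 CPM with siNT and 31.5 and 59.0 CPM in mock in U251. The groups lay far apart. The log2 fold change was -2.61 (SE 0.22, 95% interval -3.09 to -2.13, adjusted p = 2.64e-07, edgeR quasi-likelihood test), 6.11-fold lower in LN229.

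HES1 (chr3:194136145-194138732, plus strand), the founding mammalian target whose promoter words are printed above, had 27.0 and 15.3 CPM with siNT and 24.1 and 20.02 CPM in mock in LN229. In U251 it had 23.4 and 21.8 CPM with siNT and 23.3 and 24.0 CPM in mock, all inside the range of the LN229 libraries. Its log2 fold change was -0.11 (SE 0.16, 95% interval -0.44 to 0.23, adjusted p = 0.564). HES1 passed the test without LN229 siNT replicate 1 (-0.36, adjusted p = 0.0181, edgeR quasi-likelihood test), and its value was 0.08 without LN229 siNT replicate 2. HEYL, a further HEY family repressor, had no read in any of the 12 libraries.

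**Figure D2:**
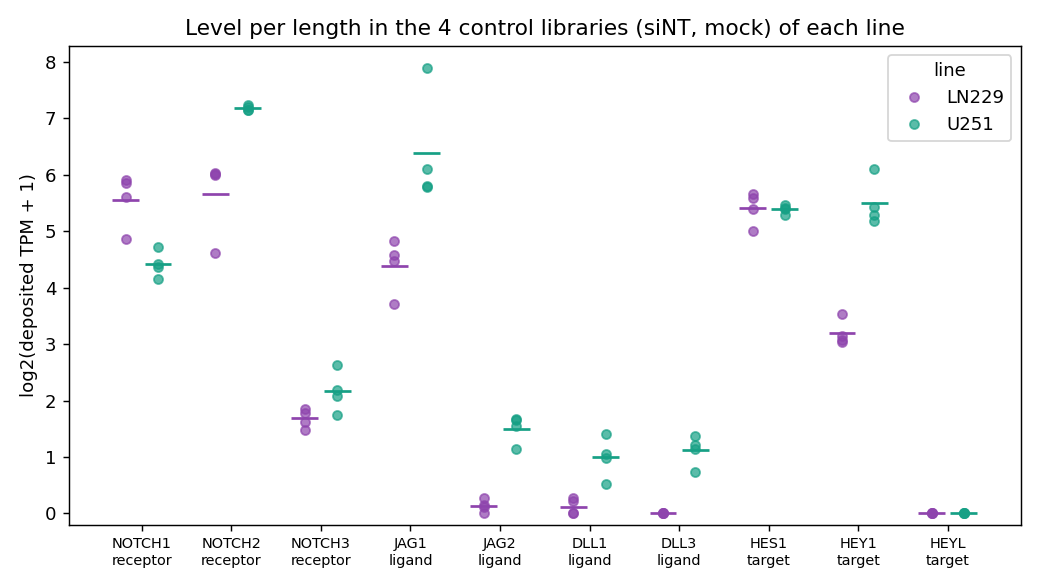
Level per length of the 10 Notch genes in the 4 control libraries (siNT and mock) of LN229, drawn left, and U251, drawn right, as log2 of deposited TPM plus 1. Points are libraries and the line is their mean. HES1 has nearly the same level in both lines (42.1 and 40.9 TPM on average), HEYL is at 0 in every library, and JAG2, DLL1 and DLL3 average over 1 TPM in U251 and under it in LN229.

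The order of the genes by level also differed between the lines. Levels per length were taken from the deposited TPM, a unit that corrects for gene length and library size, over the 4 control libraries. In LN229, NOTCH2 averaged 53.6 ± 20.1 TPM, NOTCH1 47.8 ± 14.1 TPM and HES1 42.1 ± 8.23 TPM (SD, n = 4), and these 3 overlapped. NOTCH2 overlapped the others only through siNT replicate 1 (23.49 TPM), the library with few reads from long genes. In the remaining controls it was at 62.99 to 64.46 TPM, above every NOTCH1 and HES1 library. JAG1 followed at 20.8 ± 6.35 TPM, HEY1 at 8.28 ± 1.58 TPM and NOTCH3 at 2.23 ± 0.37 TPM, each with its highest library below the lowest of the gene before it. JAG2 (0.101 ± 0.0867 TPM) and DLL1 (0.0934 ± 0.109 TPM) overlapped near 0, and DLL3 and HEYL were at 0.

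In U251, NOTCH2 led with 143.9 ± 4.52 TPM, and JAG1 followed with a median of 61.1 TPM, since 1 library at 235 TPM set its mean of 103 ± 88.6 TPM. HEY1 averaged 45.7 ± 14.9 TPM and HES1 40.9 ± 2.21 TPM, and their libraries overlapped. The highest HEY1 library, mock replicate 2 at 67.75 TPM, also lay above the lowest JAG1 library at 53.75 TPM. NOTCH1, second in LN229, followed HES1 in U251 with 20.5 ± 3.57 TPM, below every HES1 library. NOTCH3 followed at 3.59 ± 1.20 TPM. JAG2 (1.87 ± 0.449 TPM), DLL3 (1.20 ± 0.391 TPM) and DLL1 (1.04 ± 0.508 TPM) overlapped, and in mock replicate 2 JAG2 was the lowest of them. HEYL was at 0.

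Intron reads, a readout not used to choose the genes, were tested in a fit of their own over 12444 genes, of which 50.5% were called between the lines in controls. Only NOTCH1, NOTCH2 and JAG1 had enough intron reads to enter that fit, and all 3 were called in the direction of their exon reads. NOTCH1 introns had 15, 53, 71 and 71 reads in the LN229 control libraries against 25, 23, 21 and 21 in those of U251, a log2 change of 0.97 (SE 0.22, adjusted p = 0.000615, edgeR quasi-likelihood test). NOTCH2 introns had 3, 48, 31 and 34 reads in LN229 against 82, 58, 85 and 73 in U251, a change of -1.55 (SE 0.30, adjusted p = 0.000521). JAG1 introns had 13, 24, 21 and 31 reads in LN229 against 70, 52, 46 and 125 in U251, a change of -1.83 (SE 0.24, adjusted p = 6.87e-07). The lowest NOTCH2 and the highest JAG1 intron counts came from the same libraries, LN229 siNT replicate 1 and U251 mock replicate 2, as the lowest and highest exon values. The intron fit was not repeated without these libraries.

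The wider pathway was described with 81 further genes in 8 lists. Of these, 70 were tested and 51 (72.9%) were called between the lines in controls, 22 higher and 29 lower in LN229, beside 67.0% of all genes. Some of these, such as MFNG, TLE2, DTX1, CNTN1 and NOTCH4, passed the filter through LN229 alone. The median log2 fold change of the 70 was -0.23, and that of all genes 0.03.

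Genes that modify or cut the receptors differed in both directions. Of 6 genes that put sugars on the receptors, 3 were higher and 1 lower in LN229. MFNG, a Fringe enzyme that extends O-fucose on Notch, had 138 reads over the LN229 controls and 6 over the U251 controls, a ratio of 21.5 (95% exact counting interval 9.62 to 59.6). LFNG, another Fringe, was higher in LN229 with a log2 change of 1.32 (SE 0.27, adjusted p = 0.000654), and so was EOGT at 1.23 (adjusted p = 1.06e-06), both by edgeR's quasi-likelihood test. RFNG was at -0.27 (adjusted p = 0.0431), a call lost in 14 of 24 alternatives, with -0.11 without TMM factors and -0.18 (adjusted p = 0.109) without LN229 siNT replicate 2. Of 9 processing genes, 2 were higher and 5 lower in LN229. ADAM17, a protease able to shed Notch, was lower at -1.11 (SE 0.14, adjusted p = 1.18e-05), and so was the gamma-secretase subunit NCSTN (-0.58), while PSEN2, a further subunit, was higher (0.54).

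Of the 8 genes of the nuclear complex, 3 were higher and 2 lower in LN229. The Mastermind coactivators MAML3 and MAML2 went opposite ways, with log2 fold changes of 2.54 (SE 0.15, adjusted p = 1.01e-08) and -1.63 (SE 0.15, adjusted p = 6.70e-07) in edgeR's test. The acetyltransferase KAT2B was higher by 1.43. Of 15 corepressor genes 3 were higher and 9 lower, among them HDAC1 (-1.04) and FHL1 (-1.64) on the lower side and TLE4 (1.81) on the higher. TLE2, a Groucho family corepressor, had 209 reads over the LN229 controls and 5 over the U251 controls, a ratio of 39.0 (interval 16.5 to 122).

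Ligand endocytosis genes, which let the ligand-bearing cell pull on the receptor, were 1 higher and 4 lower of 6 tested, with the ubiquitin ligase MIB2 at -0.88 and the dynamin DNM2 at -0.77. Of 13 tested genes of receptor turnover, 3 were higher and 4 lower. DTX1, a Deltex ubiquitin ligase that is itself a known Notch target in lymphocytes, had 85 reads over the LN229 controls and none over those of U251, at least 26.5-fold higher in LN229 against 3 reads over the group. CUL1 (-0.94) and CCNC (-1.01) were lower in LN229.

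Among 7 other receptors and ligands 3 were tested and 2 were higher in LN229. Both of these, NOTCH4 and CNTN1, entered the test through their LN229 reads alone, so their calls are a description and support nothing. NOTCH4 had a log2 fold change of 0.99 (adjusted p = 0.0129 by edgeR's test), with 0.664 and no call on unique exon reads. Without LN229 siNT replicate 1 it was at 0.84 (adjusted p = 0.0509). CNTN1, a neural adhesion protein reported as a Notch ligand, had 181 reads in LN229 controls and 2 in U251 controls, a ratio of 84.5 (interval 23.1 to 703). Of 10 tested genes listed as further targets, 5 were higher and 4 lower. CCND1 (2.497) and BCL2 (2.24), which many other pathways control too, were higher in LN229, and ID1 (-1.88) and ID3 (-2.11), known mainly as BMP targets, were lower. The HES and HEY genes on that list, given as a description, went both ways. HES6 had 18.2 to 30.4 CPM in LN229 controls against 8.59 to 14.3 CPM in U251 controls. HEY2, tested through its LN229 reads alone, had 2.02 to 3.42 CPM against 0.159 to 0.484 CPM. HES4 was the other way, with 2.40 to 2.82 CPM against 4.39 to 5.64 CPM.

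The line differences were also measured among the siXRN2 libraries, where 54.3% of all genes were called, 26.8% higher and 27.4% lower in LN229. NOTCH1 stayed higher in LN229 at 1.06 (SE 0.25, adjusted p = 0.00292), and NOTCH2 (-1.41, adjusted p = 0.00108) and HEY1 (-2.40, adjusted p = 2.72e-05) were lower, by edgeR's quasi-likelihood test. JAG2, in the test through its U251 reads alone, was at -2.502. JAG1 (-1.73, adjusted p = 0.0369) and HES1 (-0.55, adjusted p = 0.0496) were called lower too, but each call was lost in 10 of the 12 fits that left out a library, and DESeq2 did not call HES1 (adjusted p = 0.101). NOTCH3 was at -0.23 (adjusted p = 0.577). Intron reads of NOTCH1 (1.10), NOTCH2 (-1.61) and JAG1 (-2.27) were called there as well, beside 35.2% of all genes with tested introns.

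After XRN2 depletion, none of the 7 tested members was called in either line against either control. DLL1, DLL3 and HEYL had too few reads to be tested. In LN229, 0 of 7 tested members were called against siNT, beside 3.16% of all genes (1.21% higher, 1.95% lower), and 0 against mock, beside 1.29% (0.548% higher, 0.738% lower). In U251 the count was 0 against siNT, beside 0.00703% (XRN2 alone), and 0 against mock, beside 0.0492% (0.0422% higher, 0.00703% lower). The same held for the mean of both lines against siNT, beside 1.22% (0.443% higher, 0.773% lower), and for the difference of the lines in that contrast. There edgeR called 0 of 14232 genes (0%) and DESeq2 15, and the unadjusted p was under 0.05 for 945 genes. DESeq2 also called 0 members in each of these contrasts, but it gave no adjusted p for some of them and could not have called those. This was so for JAG2 in LN229 against both controls, in U251 against mock, in the mean of the lines and in their difference. It was also so for NOTCH3 in LN229 against siNT. At an unadjusted p under 0.05, JAG2 passed in LN229 against both controls, in the mean of the lines and in their difference, and JAG1 passed in U251 against mock. Contrasts against siNT and mock share the siXRN2 libraries and are given side by side.

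**Figure D3:**
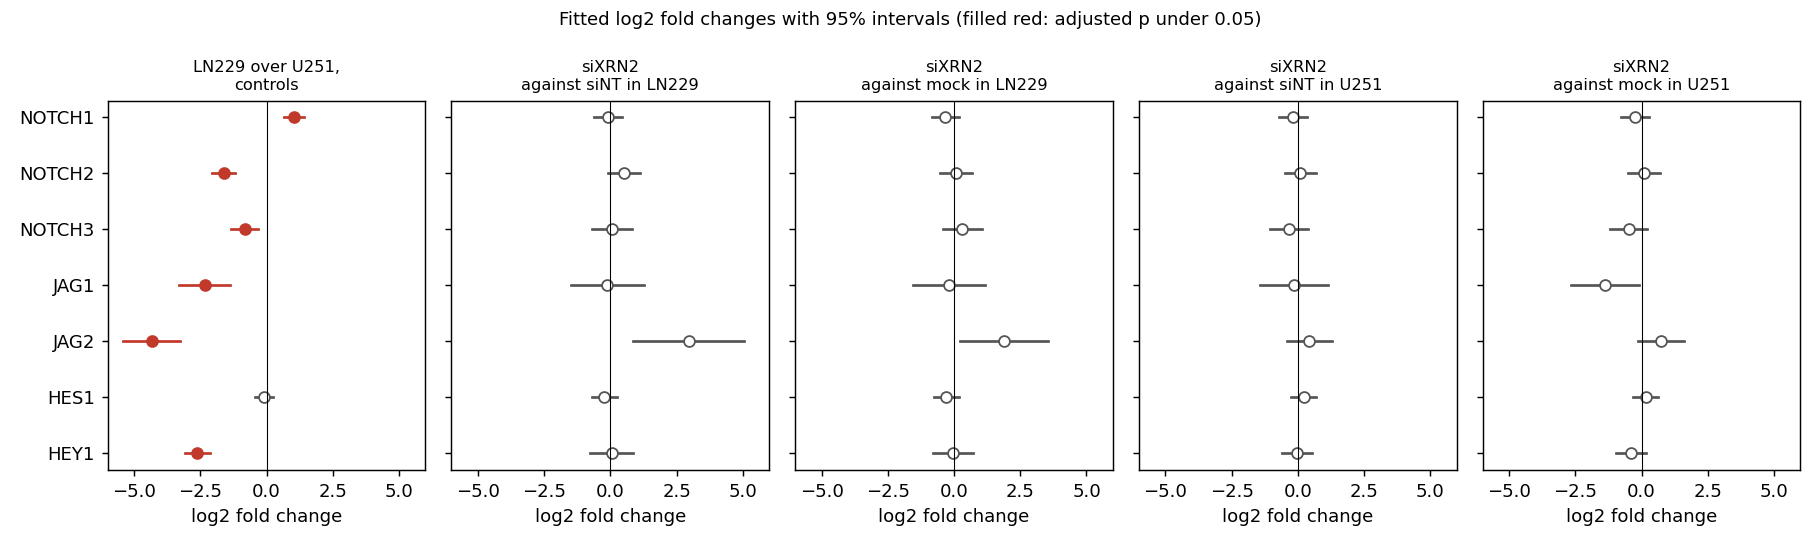
Fitted log2 fold changes of the 7 tested Notch genes with 95% intervals, for LN229 over U251 in controls (left panel) and for siXRN2 against siNT or mock in each line. Filled red points have an adjusted p under 0.05 in edgeR's quasi-likelihood test. The 6 red points are in the line comparison, where JAG2 entered the test through its U251 reads alone and its point is a description. The siXRN2 panels hold open points, with JAG2 farthest from 0 in LN229.

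NOTCH1 in LN229 was at 89.9 and 109.5 CPM with siXRN2, both between the siNT values and both below the mock values. Its log2 fold change was -0.08 against siNT (95% interval -0.60 to 0.44) and -0.33 against mock (-0.85 to 0.19). In U251 it was at 49.9 and 46.0 CPM with siXRN2, and its change was -0.18 against siNT (-0.72 to 0.36) and -0.24 against mock (-0.79 to 0.30).

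NOTCH2 in LN229 was at 241 and 293 CPM with siXRN2, on either side of the mock values of 253 and 252 CPM and of the higher siNT library. The log2 fold change was 0.53 against siNT (SE 0.28, 95% interval -0.08 to 1.14, adjusted p = 0.283, edgeR quasi-likelihood test) and 0.08 against mock (-0.52 to 0.69). The first value depends on which siNT library is kept: it was 1.29 (adjusted p = 0.000477) with replicate 1 alone, the library with few reads from long genes, and 0.08 with replicate 2 alone. With replicate 1 alone NOTCH2 was also called in the mean of both lines (0.69, adjusted p = 0.00178) and in the difference of the lines (1.19, adjusted p = 0.00577, both in edgeR). In U251 NOTCH2 was at 729.9 and 688 CPM with siXRN2, above all 4 controls, with changes of 0.10 against siNT (-0.50 to 0.70) and 0.09 against mock (-0.51 to 0.69).

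NOTCH3 was at 6.37 and 5.42 CPM with siXRN2 in LN229 and at 6.23 and 7.76 CPM in U251. In LN229 these overlapped both controls, with changes of 0.06 against siNT (-0.69 to 0.81) and 0.31 against mock (-0.43 to 1.06). In U251 both lay below the siNT values and between the mock values, with changes of -0.33 (-1.03 to 0.37) and -0.49 (-1.18 to 0.21).

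JAG1 in LN229 was at 40.5 and 37.6 CPM with siXRN2, between the siNT values and below the mock values. Its log2 fold change was -0.12 against siNT (95% interval -1.5 to 1.27) and -0.19 against mock (-1.55 to 1.18). In U251 it was at 136 and 123 CPM with siXRN2, and its change was -0.14 against siNT (-1.43 to 1.15). Against U251 mock the change was -1.38 (SE 0.56, adjusted p = 0.445, edgeR quasi-likelihood test). This value comes from mock replicate 2 at 541 CPM: without that library it was 0.00265, and with it as the only mock library -2.06 (adjusted p = 0.000595). The value for siNT against mock in the same gene was -1.24 (adjusted p = 0.973), and intron reads of JAG1 were also highest there, at 17.3 RPM of all gene reads, against 6.59 to 9.60 RPM in the other U251 libraries.

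JAG2 in LN229 was at 0.677 and 1.05 CPM with siXRN2, or 5 and 6 reads, against 0 and 1 read with siNT and 2 and 1 reads in mock. Both siXRN2 values lay above all 4 controls. The ratio of reads was 9.16 against siNT (95% exact counting interval 1.33 to 394) and 3.96 against mock (1.05 to 22.1). These intervals cover counting error only, and replicates differed by more, with chi-square per gene of 7.14, 17.8 and 2.54 in LN229 siXRN2, siNT and mock. The test across all genes, which JAG2 entered through its U251 reads alone, gave adjusted p = 0.102 and 0.237 in edgeR. In U251 JAG2 was at 5.05 and 4.72 CPM with siXRN2, again above all 4 controls, with log2 fold changes of 0.44 against siNT (SE 0.39, 95% interval -0.41 to 1.29) and 0.74 against mock (SE 0.41, interval -0.14 to 1.61). The mean of both lines against siNT was 1.70 (SE 0.52, adjusted p = 0.122 in edgeR). All 4 siXRN2 libraries lay above the siNT libraries of their line, an order whose share over all genes was not counted. Without LN229 siNT replicate 2 the mean of both lines was 2.93. That fit keeps replicate 1 as the only LN229 siNT library, which stood apart and held 0 JAG2 reads.

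HES1 in LN229 was at 18.02 CPM in both siXRN2 libraries, between the siNT values and below the mock values. Its log2 fold change was -0.22 against siNT (95% interval -0.71 to 0.27) and -0.29 against mock (-0.76 to 0.19). The value against siNT was 0.27 without siNT replicate 1 and -0.58 without replicate 2, the second with adjusted p = 0.0334 in edgeR's test. In U251 HES1 was at 26.4 and 26.3 CPM with siXRN2, above all 4 controls, with changes of 0.22 against siNT (-0.25 to 0.69) and 0.16 against mock (-0.31 to 0.62). The difference of the lines in the change against siNT was -0.44 (SE 0.31, adjusted p = 0.777).

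HEY1 was at 5.15 and 8.22 CPM with siXRN2 in LN229, on either side of the siNT and mock values, with changes of 0.05 against siNT (95% interval -0.75 to 0.86) and -0.04 against mock (-0.81 to 0.72). In U251 it was at 31.8 and 37.9 CPM with siXRN2, with changes of -0.03 (-0.60 to 0.55) and -0.38 (-0.95 to 0.18). DLL1 had 1 read over both siXRN2 libraries of LN229 and 10 over those of U251. DLL3 had 0 reads with siXRN2 in LN229 and 9 in U251.

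Intron reads of NOTCH1, NOTCH2 and JAG1 were not called in any siXRN2 contrast. The shares of all genes called on introns were 0.281% and 0.249% in LN229 against siNT and mock, 0.0161% and 0.0884% in U251, 0.113% in the mean of both lines and 0% in their difference. Between siNT and mock the 3 genes were not called on introns either, beside 0% in LN229 and 0.00804% in U251. JAG1 introns were at 16 and 8 reads with siXRN2 in LN229, with a log2 change of -1.11 against siNT (SE 0.45, adjusted p = 0.336, edgeR quasi-likelihood test).

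Of the 70 tested genes in the wider pathway lists, 5 (7.14%) were called in LN229 against siNT, beside 3.16% of all genes, 2 (2.86%) against mock, beside 1.29%, and 0 in U251 against either control. POFUT1, the enzyme that adds O-fucose to Notch receptors, was at 96.7 and 41.1 CPM with siXRN2 in LN229, against 167 and 189.5 CPM with siNT and 213 and 212 CPM in mock. It fell by 1.36 against siNT (SE 0.28, adjusted p = 0.0271) and by 1.61 against mock (adjusted p = 0.0212), and the siXRN2 libraries differed widely from each other. Its change against siNT was -0.88 (adjusted p = 0.161) without siXRN2 replicate 2 and -2.12 without replicate 1. In U251 POFUT1 was at 119.7 and 103.5 CPM with siXRN2, against 159.7 and 157.5 CPM with siNT, a change of -0.51 that was not called (adjusted p = 1.00).

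NEURL1B, a Neuralized ubiquitin ligase that acts on ligands, fell in LN229 by 1.02 against siNT (adjusted p = 0.0442) and by 1.25 against mock (adjusted p = 0.0306) in edgeR's test. ID1 fell by 1.17 against siNT (adjusted p = 0.0235), at 26.4 and 21.9 CPM with siXRN2 against 69.5 and 40.2 CPM with siNT. KAT2B rose by 0.84 (adjusted p = 0.0393), at 176 and 196.5 CPM with siXRN2 against 82.8 and 124 CPM with siNT. APH1B, a gamma-secretase subunit, rose by 0.79 (adjusted p = 0.0427), at 23.8 and 34.0 CPM with siXRN2 against 17.1 and 16.1 CPM with siNT. In the fit on LN229 libraries alone none of these 5 calls against siNT remained, with adjusted p of 0.110 to 0.145. None remained without siXRN2 replicate 2, where APH1B was at 0.52 (adjusted p = 0.436) and NEURL1B at -0.72 (adjusted p = 0.429). None remained without siNT replicate 1, the library that stood apart, where ID1 was at -0.70 (adjusted p = 0.0968) and KAT2B at 0.62 (adjusted p = 0.116), all in edgeR. Against mock, the calls of POFUT1 and NEURL1B were lost in 5 and 6 of 25 alternatives. On LN229 libraries alone they had adjusted p of 0.114 and 0.115 in edgeR's test. Without siXRN2 replicate 2 their changes against mock were -1.13 and -0.95. The mean of both lines against siNT called POFUT1 alone (-0.93, adjusted p = 0.0441), a call lost in 9 of 23 alternatives.

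The control siRNA itself moved no member past the test. Against mock, edgeR called 0 members and 0 of all genes (0%) in LN229 and in U251. At an unadjusted p under 0.05 there were 647 genes in LN229 and 682 in U251, none of them a member, and DESeq2 called 1 gene in LN229 and 0 in U251. In LN229 the widest value was -1.06 for JAG2 (SE 1.23), which rests on 1 read with siNT and 3 reads in mock. NOTCH2 in LN229 was at -0.45 (SE 0.28), and JAG1 at -1.24 (SE 0.56) was the widest in U251. The NOTCH2 and JAG1 values each rested on a library that stood apart. Without that library they were 0.04 and 0.14. With it as the only library of its group they were -1.21 (adjusted p = 0.000908) and -1.93 (adjusted p = 0.00108 in edgeR's test), both called.

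**Figure D4:**
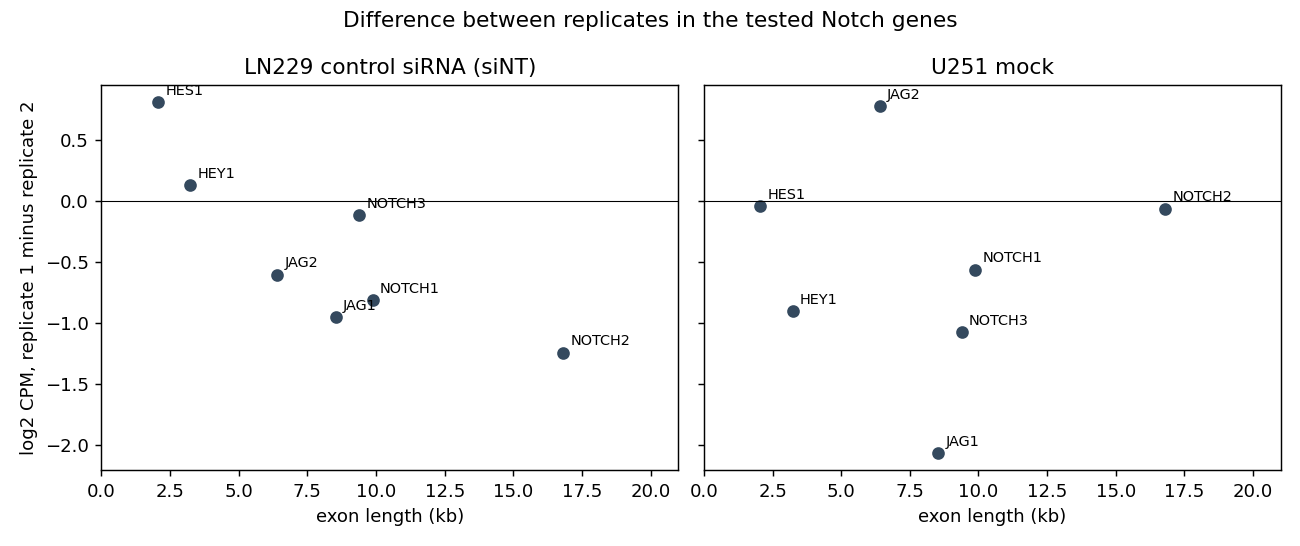
Difference between the replicates of LN229 siNT (left) and U251 mock (right) in log2 CPM, replicate 1 minus replicate 2, against exon length in kilobases, for the 7 tested Notch genes. In LN229 siNT the long NOTCH2 (-1.24) lies at the bottom and the short HES1 (0.81) at the top, and the long NOTCH3 (-0.11) lies between them. In U251 mock JAG1 (-2.06) lies lowest.

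The tested Notch genes span 2062 to 16807 bases of exon, and the libraries that stood apart differed from their partners by different amounts from gene to gene. In LN229 siNT, replicate 1 minus replicate 2 was -1.24 on the log2 scale for NOTCH2, -0.95 for JAG1 and -0.81 for NOTCH1, whose exons span 16807, 8534 and 9880 bases. It was 0.81 for HES1, with 2062 bases, and 0.13 for HEY1, with 3232 bases. The order did not follow length throughout. NOTCH3, with 9394 bases, was at -0.11, and JAG2, with 6397 bases and at most 1 read per library there, was at -0.6. In U251 mock, the difference was -2.06 for JAG1, which lies at the 0.583 percentile of all genes tested, -1.07 for NOTCH3, -0.90 for HEY1 and -0.56 for NOTCH1, and 0.78 for JAG2. NOTCH2 (-0.06) and HES1 (-0.04) had nearly equal values there. The part of RNA quality and of the stress genes in these differences was not tested.

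The genes whose pattern lay closest to that of the leading receptor, ligand and target were found by Pearson correlation of log2 CPM over the 12 libraries after subtracting each line's mean, among 11440 genes, as a description. For NOTCH2 these were DENND4C (r = 0.985), PRRC2C (0.983) and NIPBL (0.982), and over the 10 libraries without those that stood apart the values were 0.73, 0.58 and 0.69. For JAG1 they were TPP2 (0.985), SLC7A1 (0.981) and SLC7A11 (0.98), with 0.83, 0.75 and 0.76 over 10 libraries. For HES1 they were CCDC74B (0.953), LENG1 (0.891) and HSD11B1L (0.889), with 0.93, 0.93 and 0.83. The NOTCH2 and JAG1 likeness thus rested in part on the libraries that stood apart, and all values share library depth and composition.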

How the data were processed

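RNA was extracted with a column kit, made into TruSeq RNA v2 libraries and sequenced on a MiSeq, per the labels' protocols. The kit enriches poly(A) RNA and does not record the strand, so reads of overlapping genes cannot be separated. Per the file headers, the authors deposited whole-number counts of total exon, unique exon and intron reads for each gene and library, together with TPM and RPKM values. How the deposited TPM were made is not stated, and the deposited RPKM were not analysed here. The aligner and the counter were not given in the sources used here. Positions are given as GRCh38: the submitters' processing notes list GRCh37 and hg19, yet 96.8% of 57836 identifiers found in GENCODE 29 carry its GRCh38 coordinates.

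Total exon counts were tested in edgeR 4.0.16 (R 4.3.3). The function filterByExpr (count minimum 10, total minimum 15) kept 14232 genes, and TMM factors were 0.927 to 1.13. A mean for each group was estimated from all 12 libraries together, which left 6 residual degrees of freedom. Robust quasi-likelihood F-tests were adjusted over all genes by Benjamini-Hochberg at 0.05. Log2 CPM used a prior count of 2. Alternatives were DESeq2 1.42.0, its size factors, no TMM factors, other filters, unique reads, an exon-length offset, a replicate block, smaller sets of libraries and each library left out in turn. Leaving out both libraries that stand apart, and taking mock or siNT as the only controls of the line difference, were added after seeing the data.

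Groups and replicate numbers come from the sample titles. The members, the gene lists and the rule for named genes were chosen with earlier results of these data known. The rule names all members, XRN2, up to 4 called genes per list and contrast with the smallest p, list genes in counts of 5 or fewer, and the 3 genes most like the leading receptor, ligand and target. Replicate pairs differed by more than sampling noise, with chi-square statistics per gene of 1.70 to 24.7. Summed marker levels of other cell types were 3.42 to 9.45 CPM (LN229) and 13.8 to 21.6 CPM (U251) for endothelial, 1.75 to 10.1 CPM and 47.9 to 70.0 CPM for immune, and 375 to 445 CPM and 153 to 222 CPM for neuronal markers. They were 54.6 to 120 CPM and 18.1 to 29.7 CPM for epithelial and 413 to 550 CPM and 28.5 to 36.2 CPM for fibroblast and pericyte markers. Their part in the results was not tested.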

Additional observations from a re-analysis of the deposited data

Results flagged for a closer look

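NOTCH2 had 109.36 CPM in LN229 siNT replicate 1, a library whose gap to the nearest of the 4 LN229 control libraries took up nearly the whole range of the group. JAG1 had 541.39 CPM in U251 mock replicate 2, whose gap to the nearest of the 4 U251 control libraries likewise took up nearly the whole range. In all, 14 groups of 4 control libraries were examined, 1 per tested gene and line, and chance alone sets apart about 1 group in 20.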

How the results depend on the processing

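Of 1146 recomputed member values, 34 changed sign, and none of these was called in either fit. The count holds all 7 tested members in the line comparisons and in siXRN2 against each control within a line. For the mean of the lines and their difference it holds NOTCH2 and JAG2 alone. Between siNT and mock it holds NOTCH2 in LN229 and JAG1 in U251 alone. The calls of NOTCH1, NOTCH2, JAG1 and HEY1 between the lines in controls held in every alternative that gave a value. That of JAG2 did too, but it entered the test through its U251 reads alone and is a description only. The cause of the changes below was not tested. Without TMM factors HES1 between the lines was 0.0587, NOTCH1 in LN229 against siNT 0.0113 and HEY1 against mock 0.0203. HEY1 was 0.00513 with mock plus siNT as the control, and NOTCH3 against siNT in LN229 was -0.054 with an exon-length offset, alone or with the replicate block. Without a filter 1 member was called in LN229 against siNT (NOTCH2) and 1 in U251 against mock and between siNT and mock (JAG1).

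Without both libraries that stand apart, HES1 in LN229 against siNT was 0.27, and in U251 against mock NOTCH1 was 0.058, NOTCH3 0.18 and HEY1 0.133. NOTCH2 was -0.018 in the difference of the lines and 0.0352 between siNT and mock in LN229, and JAG1 was 0.138 between siNT and mock in U251.

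With each library left out in turn, HES1 between the lines ranged from -0.358 to 0.0753. In LN229 against siNT 0 to 2 members were called, and the ranges were -0.393 to 0.384 for NOTCH1, -0.0635 to 0.166 for NOTCH3, -0.475 to 0.452 for JAG1, -0.582 to 0.27 for HES1 and -0.298 to 0.376 for HEY1. Against mock they were -0.0664 to 0.216 for NOTCH2 and -0.396 to 0.278 for HEY1. In U251 against siNT they were -0.275 to 0.0174 for JAG1 and -0.161 to 0.0958 for HEY1. Against mock 0 to 1 members were called, with -0.494 to 0.0666 for NOTCH1, -0.921 to 0.19 for NOTCH3, -2.06 to 0.00265 for JAG1 and -0.761 to 0.144 for HEY1. For the mean of the lines 0 to 2 members were called, and for their difference 0 to 1, with NOTCH2 at -0.0169 to 1.19. Between siNT and mock 0 to 1 members were called in each line, with NOTCH2 at -1.21 to 0.0352 in LN229 and JAG1 at -1.93 to 0.139 in U251.

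Counts over all genes moved far more. In LN229 against siNT 450 genes were called, 1 without siXRN2 replicate 2 and 3308 without siNT replicate 2, and against mock 183, with 1 to 1593. In U251 the counts were 1 against siNT, with up to 530 in the compared groups alone, and 7 against mock, with 1 to 768. The mean of the lines called 173 genes, with 1 to 2421, and their difference 0, with up to 1140. Between siNT and mock 0 were called, with up to 1939 in LN229 without siNT replicate 2 and up to 475 in U251 without mock replicate 1. A lone library left in a group was assumed to vary like the others.

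Replicate numbers did not pair the libraries, with correlations of -0.0381 to 0.0657 between same-numbered deviations, and the replicate block changed the count of called members in 1 comparison. Between the siXRN2 libraries of the lines it was 5 with the block and 6 without, since JAG1 was at -1.75 with the block (adjusted p = 0.065 in edgeR). Depth limits JAG2, DLL1 and DLL3, which had 15, 3 and 0 reads in all LN229 libraries.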
